A study of Rattus norvegicus with 30 samples.

Results

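The mitochondrial ribosomal protein genes measured here are the 72 rat genes whose symbols begin with Mrpl or Mrps and a number, out of 18166 genes carried by the array under exactly 1 symbol. Each of the 72 was represented by 1 probe set, and RefSeq lists all 72 as protein coding. By the names used for the mammalian particle, 46 encode proteins of the large subunit and 24 proteins of the small subunit, and 2 are copies named as like an Mrp gene (Mrps21l and Mrpl41l1). A further split, by protein name, gave 41 named after a bacterial protein and 29 with a name kept for mitochondria, among them Mrps18a and Mrps18b although they are related to bacterial S18. RNA came from whole liver tissue of 30 wild-type Wistar rats, with 6 rats in each of 5 groups. They had no operation (unoperated), had a sham operation (sham), or lost 30% (PH30), 70% (PH70) or 90% (PH90) of the liver by partial hepatectomy. Tissue was taken 24 hours after resection and measured on Affymetrix Rat Gene 2.0 ST arrays, 1 per rat. The series title names the question: whether expression in the liver remnant depends on how much was removed.

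The mitochondrial ribosome makes the small set of proteins that the mitochondrial genome encodes, all of them parts of the respiratory chain and the ATP synthase. Its RNA comes from mitochondrial DNA, but every one of its proteins is encoded in the nucleus, made in the cytosol and imported. Hepatocytes are rich in mitochondria, and a remnant regains mass after resection as its cells enlarge and divide. Mrp genes are scattered over the genome, and in rat these 72 lay on 18 chromosomes, with 12 on chromosome 1 and 12 on chromosome 10.

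All values are on a log2 scale on which every probe set has a median of 0 over the 30 rats. A value therefore says how far a rat stood from the typical rat for that gene, and the level of a gene, and so the check of liver by the level of its defining markers, cannot be had from it. A gene was called where limma's adjusted p (Benjamini-Hochberg over the 18166 genes) was below 0.05, and differences are given as log2 values with their standard error (SE). In whole tissue, fewer cells of a type and less RNA per cell cannot be told apart. The unoperated rats carry numbers 145 to 152 and the operated rats 37 to 143, so the order of the rats and the lack of an operation cannot be told apart. PH30 rat 95 and PH70 rat 139 did not resemble their own groups: over the 72 genes their mean correlation with the other 5 rats of the group was -0.49 and -0.246, while the other rats of PH30 and PH70 had 0.237 to 0.492. Counts are therefore also given without these 2 rats. Both were picked from these same values, so such counts describe the data and are no separate test.

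The average of the 72 genes was highest after the largest resection. Its mean was -0.04 ± 0.05 in unoperated rats, -0.12 ± 0.03 in sham rats, -0.06 ± 0.08 after PH30, 0.11 ± 0.06 after PH70 and 0.24 ± 0.07 after PH90 (SD, n = 6 each). All PH90 rats (0.13 to 0.32) and all PH70 rats (-0.01 to 0.16) lay above all sham rats (-0.16 to -0.09). Rat 95 stood at 0.08 while the other 5 PH30 rats stood between -0.14 and -0.04, and rat 139 stood at -0.01 while the other 5 PH70 rats stood between 0.12 and 0.16. Of the 72 genes, a median of 34 were above 0 in an unoperated rat, 15 in a sham rat, 24 in a PH30 rat, 55 in a PH70 rat and 57 in a PH90 rat. The 15 mitosis genes measured beside them had another order. Their mean was 0.14 ± 0.11 in unoperated rats, -0.77 ± 0.09 in sham rats, 0.54 ± 1.14 after PH30, 1.74 ± 1.07 after PH70 and -0.17 ± 0.47 after PH90, with rat 95 at 2.59 and rat 139 at -0.25. All 15 mitosis genes rose in PH70 against sham and all 15 were lower in PH90 than in PH70. The group with the highest average of mitochondrial ribosomal protein genes (PH90) was therefore not the group with the highest average of mitosis genes (PH70). Within groups, rat 95 was the highest PH30 rat and rat 139 the lowest PH70 rat on both averages. Among PH90 rats, rat 61 was lowest on both (0.13 and -0.79). Rats 111 (0.32 and 0.32) and 43 (0.30 and 0.38) were highest on both. Among PH70 rats, rat 59 was highest in the ribosomal protein average (0.16) but stood at 1.35 for mitosis genes, below rat 58 (2.54). The relation within groups was not tested.

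**Figure D1:**
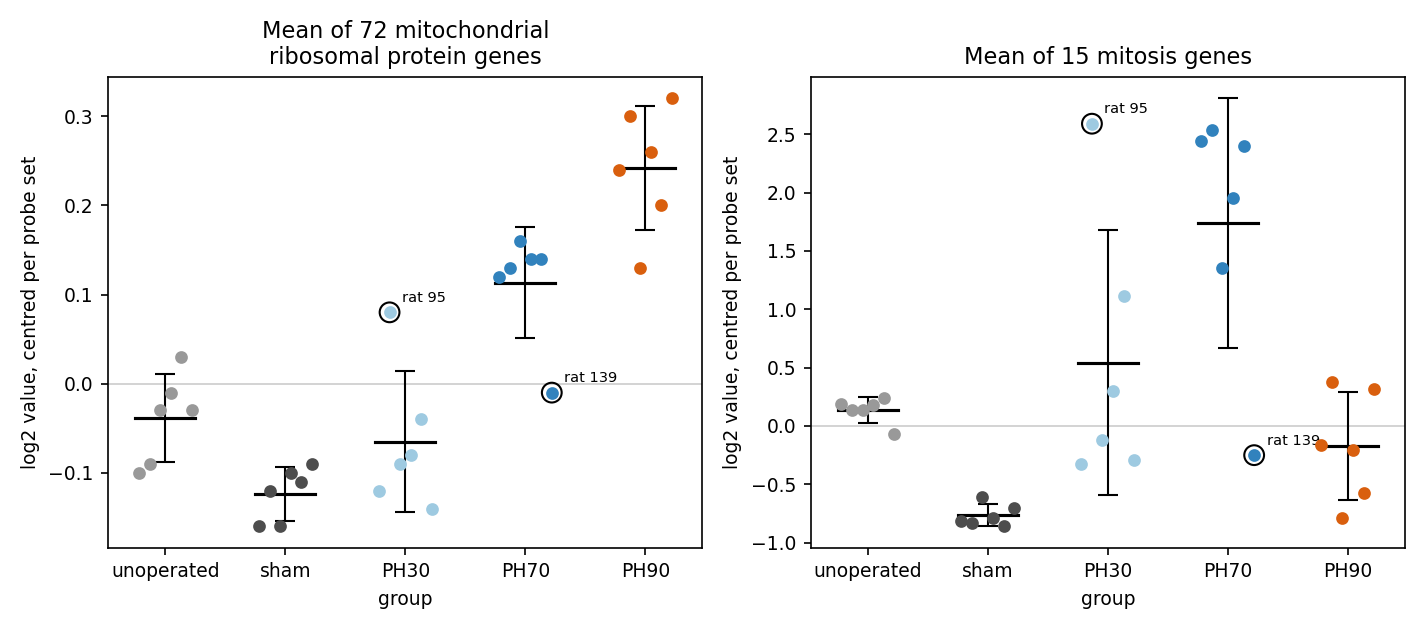
Mean of the 72 mitochondrial ribosomal protein genes (left) and of 15 mitosis genes (right) in each rat, on the log2 scale centred per probe set, with the groups from unoperated to PH90 on the horizontal axis. Points are rats, horizontal lines are group means and bars are SD (n = 6); the ribosomal protein mean is highest in PH90 (0.24) and the mitosis mean in PH70 (1.74), and the circled rats 95 and 139 lie away from their groups on both.

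After 90% resection, 47 of the 72 genes rose and 1 fell against sham, while 34.6% of all genes were called (19.9% rose and 14.7% fell). The median difference over the 72 was 0.32, against 0 over all genes tested. For 32 of the 72, every PH90 rat lay above every sham rat, which held for 12.1% of all genes. Both subunits took part: 29 of 46 genes of the large subunit rose and 1 fell (median 0.34), and 17 of 24 genes of the small subunit rose (median 0.32). Of the genes named after a bacterial protein 29 of 41 rose and 1 fell, and of those with a mitochondrial name 17 of 29 rose. Differences between these classes were not tested. Leaving out rats 95 and 139 gave 48 higher and 1 lower, with 36.5% of all genes called.

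**Figure D2:**
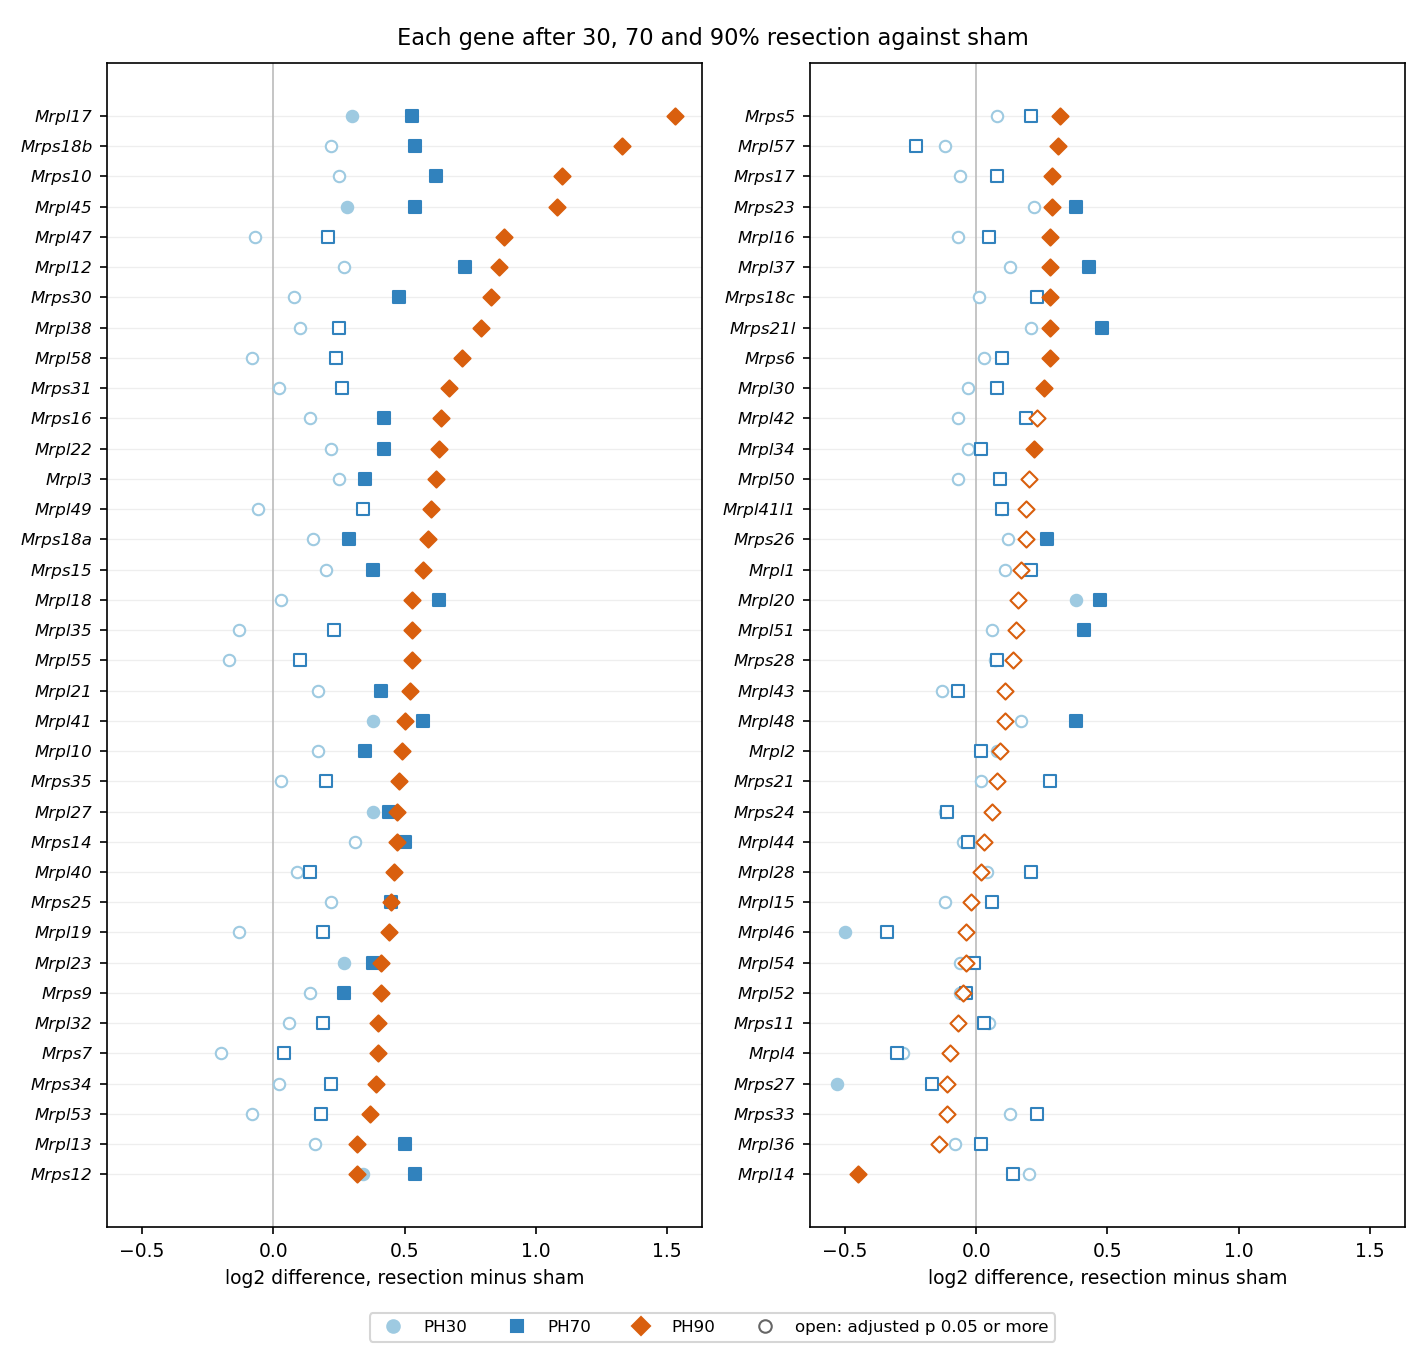
Log2 difference of each resected group from sham for all 72 genes, ordered by the PH90 difference from the top left to the bottom right; circles are PH30, squares PH70 and diamonds PH90, filled where the adjusted p was below 0.05. The PH90 differences run from 1.53 (Mrpl17) to -0.45 (Mrpl14), and 47 filled diamonds lie right of 0 and 1 left of it.

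The largest rise was that of Mrpl17, which encodes bL17 of the large subunit. It ran from 1.07 to 1.30 (median 1.20) in PH90 rats and from -0.44 to -0.26 (median -0.32) in sham rats. The groups were far apart, and the PH90 livers held 2.89-fold more (log2 1.53, SE 0.07, adjusted p = 1.6e-16, 6 of 6 rats above the sham mean). Mrps18b, a small-subunit member of the family related to bacterial S18, ran from 0.75 to 1.23 (median 1.12) in PH90 rats and from -0.40 to 0.07 (median -0.32) in sham rats. It rose 2.51-fold (log2 1.33, SE 0.13, adjusted p = 1.7e-09), without overlap of the groups.

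Mrps10, the small-subunit protein uS10, ran from 0.66 to 1.03 (median 0.78) in PH90 rats and from -0.53 to 0.34 (median -0.36) in sham rats, a difference of 1.10 (SE 0.13, adjusted p = 2.9e-08). Its highest sham value was that of rat 45, and the groups still did not overlap. Mrpl45, a large-subunit protein that lies near the exit of the peptide tunnel, ran from 0.63 to 0.98 (median 0.86) in PH90 rats and from -0.38 to -0.12 (median -0.28) in sham rats, a difference of 1.08 (SE 0.08, adjusted p = 5.9e-12). Mrpl12, the stalk protein that recruits translation factors to the ribosome, ran from 0.41 to 0.82 (median 0.60) in PH90 rats and from -0.48 to -0.06 (median -0.20) in sham rats, a difference of 0.86 (SE 0.11, adjusted p = 2.4e-07). In both genes the lowest PH90 rat stood above the highest sham rat.

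A further 4 large-subunit genes rose by more than 0.7 on the log2 scale. Mrpl47, which encodes uL29, ran from 0.56 to 1.15 in PH90 rats and from -0.48 to 0.21 in sham rats (log2 0.88, SE 0.10, adjusted p = 2.8e-08). Mrps30, which despite its name belongs to the large subunit, ran from 0.45 to 0.79 in PH90 rats and from -0.39 to -0.17 in sham rats (log2 0.83, SE 0.10, adjusted p = 1.1e-07). Mrpl38 differed by 0.79 (SE 0.10, adjusted p = 9.8e-08). Mrpl58, a release factor homologue built into the large subunit that frees stalled peptides, ran from 0.42 to 0.84 in PH90 rats and from -0.20 to 0.01 in sham rats (log2 0.72, SE 0.09, adjusted p = 7.3e-08). None of these 4 genes overlapped between the groups.

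Mrpl14 was the gene that fell. It encodes uL14, a protein at the face where the subunits meet. Its values ran from -0.72 to -0.32 (median -0.57) in PH90 rats and from -0.22 to 0.07 (median -0.09) in sham rats, and PH90 livers held 1.37-fold less (log2 -0.45, SE 0.08, adjusted p = 5.5e-05, 6 of 6 rats below the sham mean). All PH90 rats lay below all sham rats, as in 8.48% of all genes, while PH30 and PH70 rats differed from sham by 0.20 and 0.14 (SE 0.08 each, adjusted p = 0.15 and 0.27). For the 24 genes not called after PH90, differences lay between -0.14 (Mrpl36) and 0.23 (Mrpl42).

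The sequences before the start sites of 5 genes with large rises after PH90 are shown to let the motifs found there be read. Mrpl47 (0.88), which rose more than Mrpl12 (0.86), is not among the 5. Each window shown is the 150 bases upstream of the start that RefSeq's promoter entry for rat assembly GRCr8 gives. It reads in the direction of the gene, with matches to the searched motifs in capitals. The Mrpl17 window is chr1:169575700-169575849 on the minus strand and holds 1 match to the NRF1 motif and 1 to the Sp1 motif. The Mrps18b window is chr20:2842856-2843005 on the plus strand, with 1 E-box, 1 NRF1 match and 2 Sp1 matches, and its last 28 bases lie inside the annotated gene. The Mrpl45 window is chr10:82804889-82805038 on the plus strand and holds 1 NRF1 match. The Mrps10 window, chr9:21122454-21122603 on the minus strand, and the Mrpl12 window, chr10:106256596-106256745 on the plus strand, hold none of the letters searched, and the last 8 bases of the Mrps10 window lie inside the annotated gene.
Mrpl17: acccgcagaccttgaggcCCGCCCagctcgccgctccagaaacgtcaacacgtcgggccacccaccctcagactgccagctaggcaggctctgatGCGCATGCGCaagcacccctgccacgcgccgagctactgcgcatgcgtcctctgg
Mrps18b: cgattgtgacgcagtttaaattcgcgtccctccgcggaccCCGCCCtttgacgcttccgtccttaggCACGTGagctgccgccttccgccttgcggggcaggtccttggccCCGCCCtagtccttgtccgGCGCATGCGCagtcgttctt
Mrpl45: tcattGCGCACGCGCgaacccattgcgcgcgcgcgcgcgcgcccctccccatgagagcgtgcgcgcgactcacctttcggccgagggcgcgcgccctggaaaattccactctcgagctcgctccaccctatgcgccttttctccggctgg
Mrps10: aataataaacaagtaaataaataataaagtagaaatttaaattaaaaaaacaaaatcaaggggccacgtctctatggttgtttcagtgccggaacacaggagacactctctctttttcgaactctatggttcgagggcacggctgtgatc
Mrpl12: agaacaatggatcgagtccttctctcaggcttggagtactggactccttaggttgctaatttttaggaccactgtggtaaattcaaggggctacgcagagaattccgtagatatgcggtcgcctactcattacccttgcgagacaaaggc

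Over windows from 250 bases before to 50 bases after the start, 58 of the 72 genes had an entry, with 60 promoters among 33469 of all genes. The motifs were searched on both strands as letters only. The YY1 motif (AA, any base, ATGGC, any base, GC) was in 28.3% of the 60 promoters and in 1.85% of all promoters. The ETS motif bound by GABP (CCGGAAG) was in 33.3% and 8.75%, the NRF1 motif (GCGCA, any base, GCGC) in 15% and 4.25%, the E-box bound by MYC (CACGTG) in 10% and 6.42%, and the Sp1 motif (GGGCGG) in 48.3% and 33.1%. Matches of different motifs overlapped in 2 of the 60 promoters. Among promoters of the genes that rose after PH90, 35.1% held the YY1 motif, against 17.4% of the promoters of the other Mrp genes. The NRF1 motif was in 16.2% and 13% of these, the ETS motif in 32.4% and 34.8%, the E-box in 8.11% and 13%, and the Sp1 motif in 54.1% and 39.1%. These shares rest on 37 and 23 promoters and carry no test. The longer window adds bases farther upstream and bases after the start. In it Mrps10 held an ETS and a YY1 match, Mrpl12 held an Sp1 match and Mrps18b held all 5 motifs.

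A neighbour that starts on the opposite strand within 500 bases was annotated for 15 of the 58 genes with a promoter entry. Genes without an entry were not searched. Of the 12 such pairs with the neighbour on the array, both genes rose after PH90 in 6 and neither in 2. Only the Mrp gene rose in 3 (Mrpl18, Mrpl27 and Mrpl30, beside Tcp1, Eme1 and Mitd1). Only the neighbour rose in 1 (Ncapd2, beside Mrpl51). For comparison, 47 of the 72 genes and 19.9% of all genes rose after PH90. Whether the 2 genes of a pair rose together more often than these shares give was not tested. Mrpl46 and Mrps11 are a pair of Mrp genes with 234 bases between their starts, and they differed from sham by -0.04 and -0.07 after PH90 (adjusted p = 0.89 and 0.67). Mrpl32 rose after PH90 by 0.40 (adjusted p = 0.00013) beside the proteasome gene Psma2, which rose by 0.92 (adjusted p = 2.9e-10). Mrpl49 rose by 0.60 (adjusted p = 8e-04) beside Fau, the gene of a cytosolic ribosomal protein fused to a ubiquitin-like protein, which rose by 2.08 (adjusted p = 1.9e-12). Mrpl47 rose by 0.88 beside the complex I subunit gene Ndufb5, which rose by 0.16 (adjusted p = 0.038).

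After 70% resection, 29 of the 72 genes rose and none fell against sham, where 18.6% of all genes were called (10.5% rose and 8.15% fell). The median difference was 0.23, against -0.01 over all genes. The 29 were 18 of the large subunit, 10 of the small subunit and Mrps21l. For 18 of the 72, every PH70 rat lay above every sham rat, against 4.36% of all genes. Without rat 139, 39 of the 72 rose and 2 fell, with 22.3% of all genes called. Without rats 95 and 139, 42 of the 72 rose and 3 fell, the median was 0.27 and 23.7% of all genes were called.

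Mrpl12 had the largest rise after PH70. It ran from 0.05 to 0.69 (median 0.56) in PH70 rats, its lowest value being that of rat 139, and from -0.48 to -0.06 (median -0.20) in sham rats, a 1.66-fold difference (log2 0.73, SE 0.11, adjusted p = 2.9e-05). Mrpl18, the protein uL18 that binds the RNA of the central protuberance, ran from 0.23 to 0.73 (median 0.49) in PH70 rats and from -0.46 to -0.01 (median -0.09) in sham rats (log2 0.63, SE 0.13, adjusted p = 0.00067). Mrpl17 ran from 0.09 to 0.34 in PH70 rats and from -0.44 to -0.26 in sham rats (log2 0.53, SE 0.07, adjusted p = 4.9e-06). None of these 3 genes overlapped between PH70 and sham. Mrps10 rose by 0.62 (SE 0.13, adjusted p = 0.00065) and Mrps18b by 0.54 (SE 0.13, adjusted p = 0.0034), each with overlapping groups. Mrps12, which encodes uS12 of the decoding centre, ran from -0.08 to 0.55 in PH70 rats and from -0.49 to -0.12 in sham rats (log2 0.54, SE 0.09, adjusted p = 0.00011).

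After 30% resection, 7 of the 72 genes rose and 2 fell against sham, with 5.53% of all genes called (2.2% rose and 3.34% fell), and the median difference was 0.06, against 0.01 over all genes. The 7 that rose were Mrpl41 and Mrpl20 (0.38 each), Mrpl27 (0.38), Mrps12 (0.34), Mrpl17 (0.30), Mrpl45 (0.28) and Mrpl23 (0.27), with adjusted p between 0.0093 and 0.043. The call of Mrpl17 was the 1 of these 9 that held in all alternative fits and whenever any single rat was left out. Mrpl17 ran from -0.28 to 0.12 (median 0) in PH30 rats and from -0.44 to -0.26 (median -0.32) in sham rats. The lowest PH30 rat lay within the sham range, and all 6 lay above the sham mean (SE 0.07, adjusted p = 0.0093). The count of 9 fell to between 1 and 5 when PH30 rat 65, 98, 99 or 130 or sham rat 41, 45, 112, 114 or 143 was left out, with 3.45% to 4.84% of all genes called, and was 15 without rats 95 and 139 (11 higher and 4 lower, with 10.9% of all genes called).

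The 2 genes that fell after PH30 were Mrps27, a small-subunit protein of the pentatricopeptide repeat family, and Mrpl46, a large-subunit protein with no bacterial counterpart. In Mrps27, 5 PH30 rats ran from -0.74 to -0.38 and rat 95 stood at 0.52, while sham rats ran from 0.03 to 0.38 (log2 -0.53, SE 0.15, adjusted p = 0.035). In Mrpl46, 5 PH30 rats ran from -0.62 to -0.28 and rat 95 stood at 0.35, while sham rats ran from 0.03 to 0.23 (log2 -0.50, SE 0.15, adjusted p = 0.047). Rat 95 was the only PH30 rat above the lowest sham rat in either gene. The call of Mrps27 was lost in 9 of 12 fits that left out 1 rat, and that of Mrpl46 in 11 of 12. Without rats 95 and 139 the differences were -0.71 (SE 0.11, adjusted p = 0.00025) for Mrps27 and -0.64 (SE 0.12, adjusted p = 0.00096) for Mrpl46. Rat 95 stood on the other side in both genes, so leaving it out widens the differences and narrows the spread by construction. The smaller adjusted p are therefore no further evidence. After PH70 and PH90 the 2 genes differed from sham by -0.17 and -0.11 for Mrps27 (adjusted p = 0.53 and 0.63) and by -0.34 and -0.04 for Mrpl46 (adjusted p = 0.12 and 0.89).

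**Figure D3:**
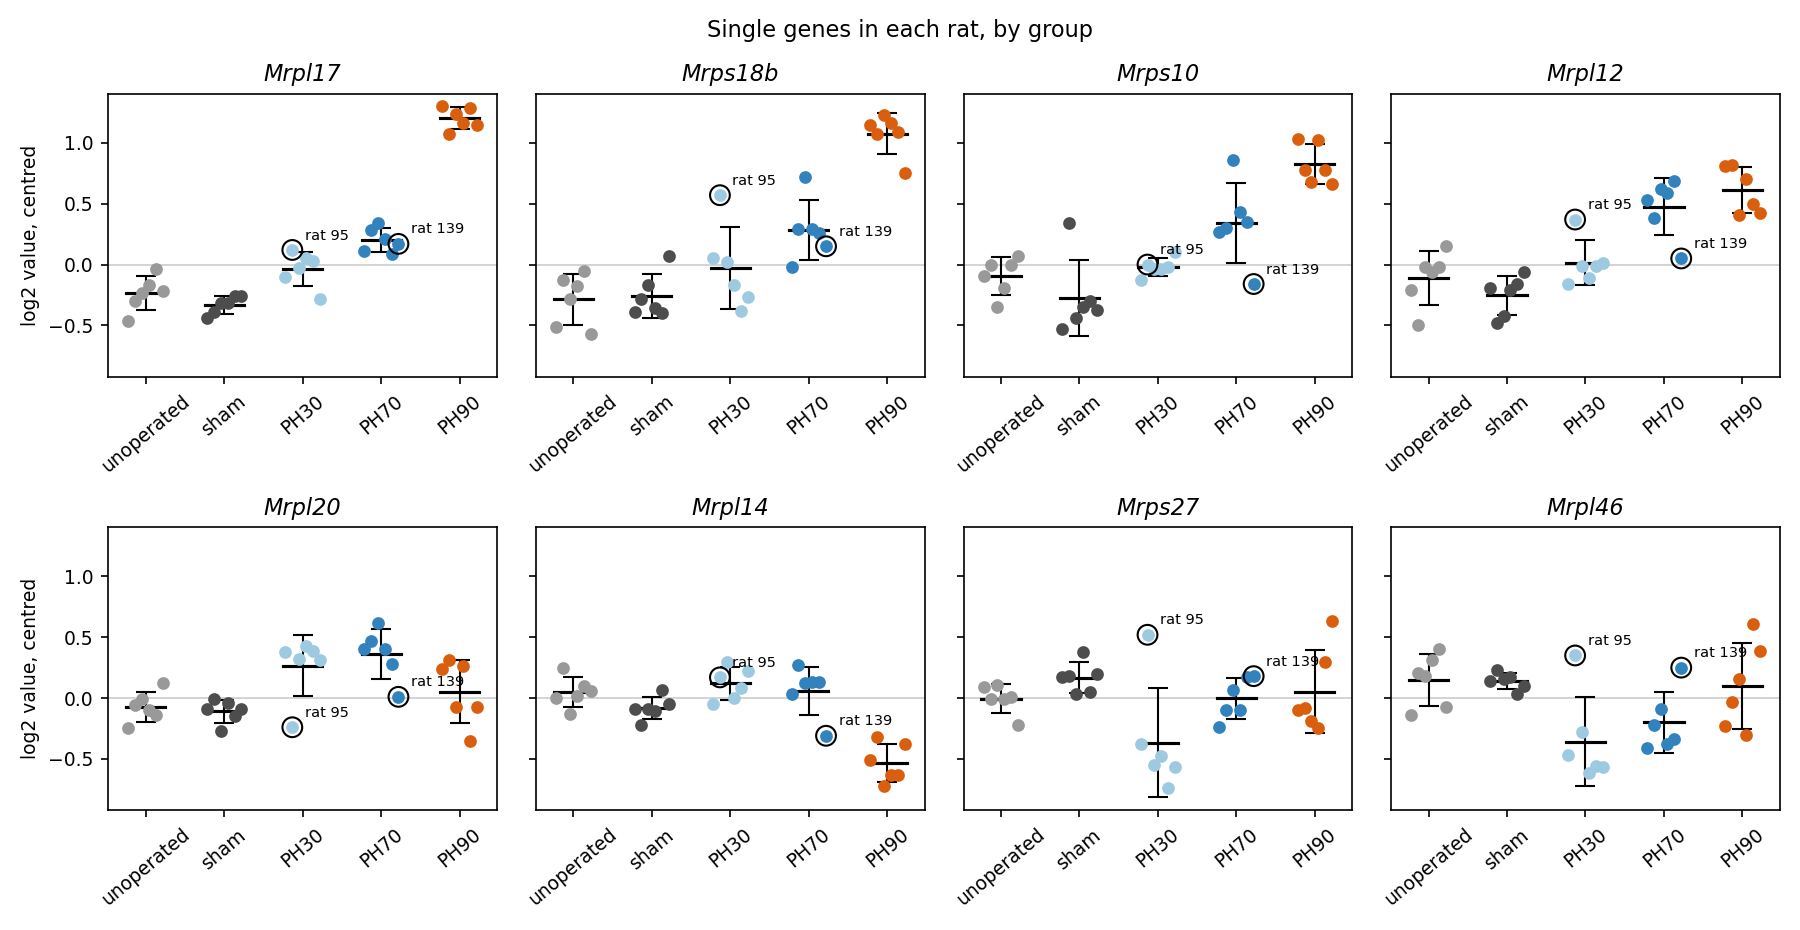
Log2 value, centred per probe set, of 8 genes in each rat, with the groups from unoperated to PH90 on the horizontal axis; points are rats, horizontal lines are group means, bars are SD (n = 6), and rats 95 and 139 are circled. Mrpl17 stands between 1.07 and 1.30 in PH90 rats, Mrpl14 between -0.72 and -0.32, and in Mrps27 and Mrpl46 rat 95 (0.52 and 0.35) lies above the other 5 PH30 rats.

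The resections also differed among themselves. Limma's F test for any difference among PH30, PH70 and PH90 called 43 of the 72 genes, with 32.4% of all genes called, and the lowest adjusted p were those of Mrpl17 (3.2e-14), Mrpl45 (1.2e-08), Mrpl47 (3.1e-08) and Mrpl58 (7.2e-08). In PH90 against PH70, 24 genes were higher and 4 lower, with 24.5% of all genes called (14.1% higher and 10.4% lower), and the median difference was 0.14 against 0.01 over all genes. Mrpl17 was 2-fold higher in PH90 than in PH70 (log2 1, SE 0.07, adjusted p = 4.1e-12), Mrps18b differed by 0.79 (SE 0.13, adjusted p = 2.6e-05) and Mrpl47 by 0.67 (SE 0.10, adjusted p = 6.5e-06). Mrpl57, a short mitochondria-specific protein of the large subunit, ran from 0.11 to 0.80 in PH90 rats and from -0.46 to 0.28 in PH70 rats (log2 0.54, SE 0.11, adjusted p = 0.00024). By contrast Mrpl12 and Mrpl18 differed between PH90 and PH70 by 0.13 (95% interval -0.09 to 0.36, adjusted p = 0.48) and -0.11 (95% interval -0.37 to 0.16, adjusted p = 0.66). Without rat 139 the count for PH90 against PH70 was 20 higher and 8 lower, with 24.5% of all genes called. Under quantile normalization it was 7 higher and 2 lower, with 13.1% of all genes called, so the share of the 72 was then near that of all genes. Of the 28 calls 8 held in every alternative and every fit without 1 rat.

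The 4 genes lower in PH90 than in PH70 were Mrpl14, Mrps33, Mrpl20 and Mrpl51. Mrpl14 ran from -0.72 to -0.32 in PH90 rats and from -0.31 to 0.27 in PH70 rats (log2 -0.59, SE 0.08, adjusted p = 2.3e-06). Mrps33, a small protein of the small subunit's head, ran from -0.42 to -0.08 in PH90 rats and from 0.01 to 0.17 in PH70 rats (log2 -0.34, SE 0.10, adjusted p = 0.011). Neither gene overlapped between the groups. Over all 18166 genes, 754 were lower in every PH90 rat than in every PH70 rat. The lowest PH70 value of Mrpl14 was that of rat 139. Mrpl20, the protein bL20, ran from -0.35 to 0.31 (median 0.09) in PH90 rats and from 0.01 to 0.62 (median 0.40) in PH70 rats (log2 -0.31, SE 0.11, adjusted p = 0.039). Mrpl51, a mitochondria-specific protein of the large subunit, ran from -0.09 to 0.15 in PH90 rats and from -0.03 to 0.59 in PH70 rats (log2 -0.26, SE 0.09, adjusted p = 0.034). In both the groups overlapped, and each call was lost in 7 of 12 fits that left out 1 rat. Against sham, Mrpl20 and Mrpl51 rose after PH70 (0.47 and 0.41, adjusted p = 0.0024 and 0.0013), and after PH90 their differences were 0.16 and 0.15 (adjusted p = 0.29 and 0.21).

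In PH70 against PH30, 8 of the 72 genes were higher and none lower, with 2.27% of all genes called (1.76% higher and 0.512% lower), and the median difference was 0.17. They were Mrpl18 (0.60, SE 0.13, adjusted p = 0.02), Mrpl12 (0.46), Mrps30 (0.39), Mrpl35, Mrpl51 (0.36 each), Mrpl13 (0.34), Mrpl58 (0.32) and Mrps16 (0.28), with adjusted p of 0.035 to 0.047 for the last 7. None of the 8 calls held in every fit. Without rats 95 and 139 there were 29, all higher, with 13.3% of all genes called, and a fit restricted to PH70 and PH30 rats called 0, with 2 called among all genes. Leaving out rat 95 gave 23 and leaving out rat 139 gave 16, with 10.5% and 7.74% of all genes called. Leaving out any other rat of the 2 groups gave between 0 and 2, with 0.0991% to 0.694% of all genes called, so the calls over all genes moved with those of the 72. In PH90 against PH30, 42 genes were higher and 1 (Mrpl14) lower, with 31.5% of all genes called (18.4% higher and 13.1% lower) and a median of 0.27. Mrpl17 was 2.36-fold higher (log2 1.24, SE 0.07, adjusted p = 2.3e-14), and Mrpl14 ran from -0.72 to -0.32 in PH90 rats and from -0.05 to 0.30 in PH30 rats (log2 -0.65, SE 0.08, adjusted p = 2.7e-07).

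Mammals have 3 proteins related to bacterial S18: Mrps18b and Mrps18c in the small subunit and Mrps18a in the large one. After PH90 the differences from sham were 1.33 for Mrps18b, 0.59 for Mrps18a (SE 0.09, adjusted p = 3.6e-06) and 0.28 for Mrps18c (SE 0.09, adjusted p = 0.011). Mrps18a ran from 0.27 to 0.56 in PH90 rats and from -0.32 to -0.06 in sham rats, without overlap. Mrps18c ran from -0.22 to 0.41 in PH90 rats and from -0.31 to -0.08 in sham rats, with overlap. After PH70 they differed from sham by 0.54, 0.29 (adjusted p = 0.02) and 0.23 (adjusted p = 0.06) in the same order of genes. The differences between the 3 genes were not tested. Mrps21l and Mrpl41l1 resemble Mrps21 and Mrpl41, and probes may not part such copies, so their values are uncertain. Mrpl41 ran from 0.01 to 0.44 in PH90 rats and from -0.47 to -0.09 in sham rats (log2 0.50, SE 0.10, adjusted p = 0.00012), and Mrpl41l1 differed by 0.19 (SE 0.10, adjusted p = 0.14). Mrps21l rose by 0.28 (SE 0.09, adjusted p = 0.02) and Mrps21 differed by 0.08 (SE 0.11, adjusted p = 0.62).

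Sham rats stood below unoperated rats in 55 of the 72 genes, with a median difference of -0.09 against 0 over all genes, but limma called none of the 72, with 0.738% of all genes called (0.308% higher and 0.429% lower). At an unadjusted p under 0.05 there were 13 (18.1%), against 11% of all genes. The lowest adjusted p was 0.062, for Mrps9, which encodes uS9 (log2 -0.30, SE 0.08, 6 of 6 sham rats below the unoperated mean). In the alternative fits between 0 and 5 of the 72 were called, all of them lower in sham, with 0.732% to 3.97% of all genes called. Against unoperated rats the resections gave smaller counts than against sham. In PH90 38 genes were higher and 3 lower (33.8% of all genes called, 19.3% higher and 14.5% lower, median 0.25), and the 3 were Mrpl14 (-0.58), Mrps33 (-0.34) and Mrpl15 (-0.32). In PH70 20 were higher and none lower (18.5% of all genes called, 9.31% higher and 9.17% lower, median 0.14), led by Mrpl18 (0.69, adjusted p = 0.00031) and Mrpl12 (0.59, adjusted p = 0.00035). In PH30 2 were higher (Mrpl41 0.37 and Mrpl20 0.34) and 3 lower (Mrpl46 -0.51, Mrpl15 -0.42 and Mrpl43 -0.30), with 9.85% of all genes called (3.48% higher and 6.37% lower) and a median of -0.01. That split was 1 higher and 3 lower with array medians subtracted (9.87% of all genes called) and 2 higher and 5 lower after quantile normalization (14.3%). Without rat 95 it was 3 higher and 11 lower, with 13% of all genes called. Leaving out PH30 rat 65, 99 or 130 or unoperated rat 145, 148, 150 or 151 gave 2 or 3 in all, with 6.88% to 9.48% of all genes called. Without rat 151 the split was 2 higher and 1 lower.

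The 72 genes varied together over the rats more than other genes varied with them. The correlation of a gene with the mean of the other 71 had a median of 0.62 over the 30 rats, and 45 of the 72 had a value above 0.5. For the 18094 other genes against the mean of the 72, the median was -0.05 and 16.2% were above 0.5. With each group's mean removed the medians were 0.37 and -0.04, and 25% and 5.75% were above 0.5. The highest over the 30 rats were Mrps30 (0.93), Mrpl12, Mrpl45 and Mrps15 (0.90 each). Mrpl14 was the lowest, at -0.50, but had 0.45 within groups. Mrpl36 and Mrps33 (-0.18 each) and Mrps11 (-0.12) were also below 0. The points share arrays and their scaling, and no p is attached.

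Other genes of mitochondrial protein synthesis were counted in lists, to be read against the 34.6% of all genes called in PH90 and the 18.6% in PH70 against sham. After PH90, 4 of 6 ribosomal proteins with other names rose: Aurkaip1 (0.89, SE 0.11, adjusted p = 7.7e-08), Chchd1 (0.50), Dap3 (0.46), the GTP-binding protein of the small subunit, and Gadd45gip1 (0.23). Oxa1l, counted in the same list although it is the insertase that receives new proteins at the inner membrane, fell (-0.35, adjusted p = 0.012). Of 30 genes of ribosome assembly and RNA modification 12 rose and 5 fell, among them Fastkd2 (0.73), needed for the large-subunit RNA, Trmt10c (0.68) of the mitochondrial RNase P, the methyltransferase Mrm2 (0.65) and Mettl17 (0.57). Hsd17b10, another RNase P subunit that is also a dehydrogenase, fell by 0.90 (SE 0.12, adjusted p = 2.8e-07). Of 15 translation factors 6 rose and 2 fell, with Tufm, the elongation factor Tu, at 0.46 (adjusted p = 8.1e-06), Qrsl1 at 0.57 and Gatb at -0.62, both of these being subunits of 1 amidotransferase. Of 15 tRNA synthetases 6 rose (Hars2 0.62) and 2 fell (Cars2 -0.65).

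Transcription and copying of mitochondrial DNA and its regulators were mixed as well. After PH90, 5 of 9 genes of mitochondrial transcription and DNA rose and 2 fell. Ssbp1, the single-strand binding protein, rose by 0.61 (SE 0.06, adjusted p = 4.7e-10), and Polg2, the accessory subunit of the DNA polymerase, fell by 0.85 (SE 0.15, adjusted p = 3.1e-05). Of 9 regulators of mitochondrial biogenesis 5 rose and 1 fell. The coactivator Ppargc1a rose 2.66-fold (log2 1.41, SE 0.26, adjusted p = 6.6e-05), Myc 2.52-fold (log2 1.33, SE 0.23, adjusted p = 2.7e-05) and Pprc1 1.86-fold (log2 0.90, SE 0.15, adjusted p = 2e-05). Gabpa fell by 0.23 (adjusted p = 0.028), and Nrf1 and Yy1 differed from sham by 0.02 and -0.13 (adjusted p = 0.93 and 0.2). After PH70 the counts were 1 higher and 0 lower of the 6 ribosomal proteins with other names, 2 and 2 of assembly, 5 and 1 of translation factors, 1 and 3 of tRNA synthetases, 2 and 3 of transcription and DNA, and 2 and 0 of regulators. The shares called after PH70 were 13.3% of assembly genes and 16.7% of the proteins with other names, no more than over all genes, and between 22.2% and 55.6% in the other lists. Ppargc1a differed by -0.02 (adjusted p = 0.98) and Myc by 0.40 (adjusted p = 0.28) in PH70 rats against sham. The 13 proteins encoded by mitochondrial DNA itself had no probe set matched by name.

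**Figure D4:**
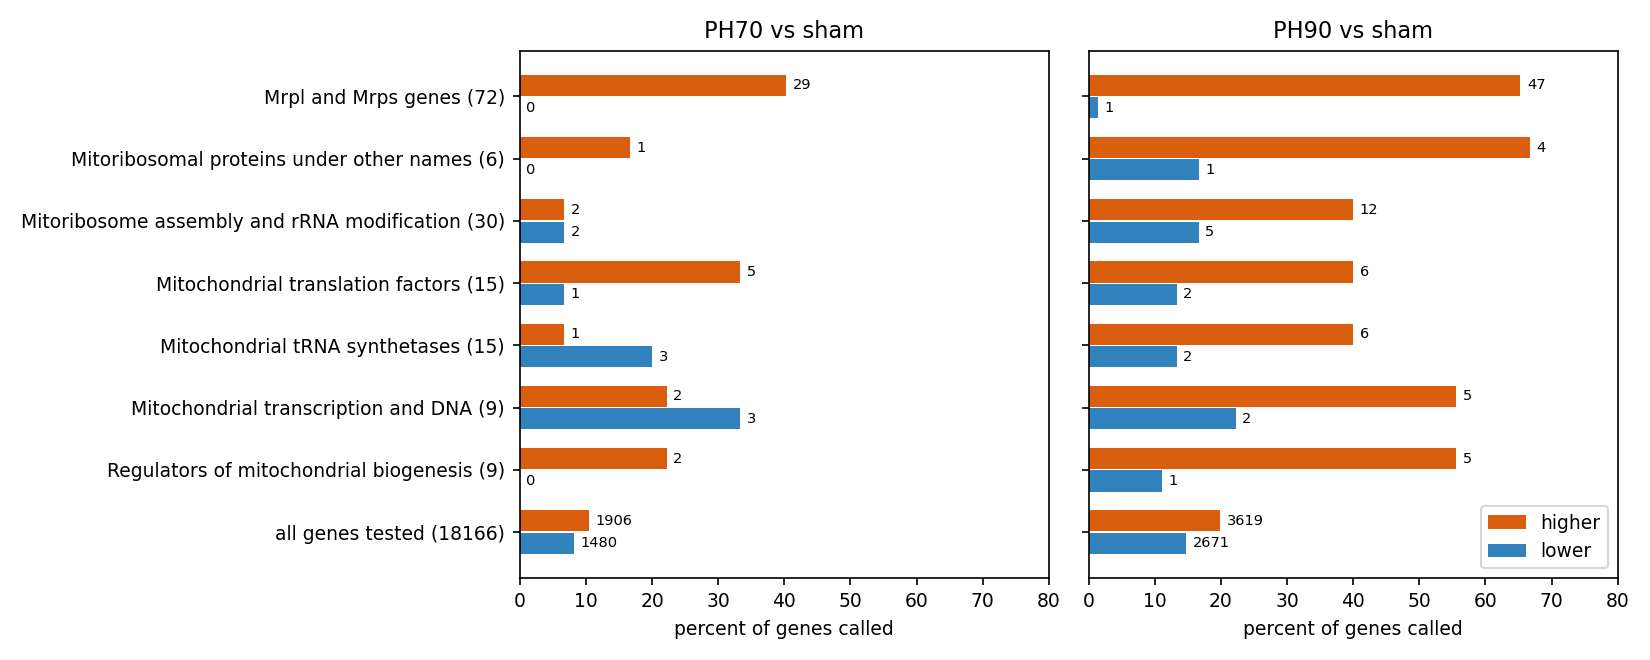
Percent of the genes of each list called higher (upper bar, orange) and lower (lower bar, blue) in PH70 against sham (left) and PH90 against sham (right), with the number of genes in the list in brackets and the number called beside each bar. In PH90 the 72 Mrpl and Mrps genes have 47 higher and 1 lower, and all genes tested have 3619 higher and 2671 lower.

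Markers of liver cell types were compared between PH90 and sham rats, where 19.9% of all genes rose and 14.7% fell. The counts called in these short lists are to be read against those shares. The mean of 9 macrophage markers was -0.30 ± 0.24 in PH90 rats and 0.12 ± 0.11 in sham rats (SD, n = 6 each), with 5 lower and 1 higher. The mean of 6 neutrophil markers was 0.24 ± 0.17 in PH90 rats and -0.10 ± 0.07 in sham rats, with 3 higher. The mean of 7 hepatocyte markers was -0.16 ± 0.05 in PH90 rats and 0.09 ± 0.09 in sham rats, with 2 higher and 2 lower. The mean of 5 endothelial markers was -0.26 ± 0.14 in PH90 rats and 0.05 ± 0.10 in sham rats, with 2 lower. The mean of 3 red cell markers was -0.07 ± 0.21 in PH90 rats and 0.44 ± 0.17 in sham rats, with 2 lower. The mean of 5 bile duct markers was 0.26 ± 0.25 in PH90 rats and -0.03 ± 0.09 in sham rats, with 1 higher. Stellate cell markers (7) averaged -0.14 ± 0.12 in PH90 rats and 0.06 ± 0.20 in sham rats, with 2 higher and 2 lower, and markers of T, NK and B cells (9) averaged -0.09 ± 0.03 in PH90 rats and 0.04 ± 0.05 in sham rats, with 2 lower. The part of cell composition in the differences of the 72 genes was not tested.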

How the data were processed

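Values are those the authors deposited, 1 log2 value per probe set and rat (29489 probe sets, 30 arrays), made with RMA in Affymetrix Expression Console per the submitters' processing notes, with versions not given in the sources used here. In the deposited table each probe set has a median of 0 (within 5e-07), and it carries no statement of scale or centring, so log2 is taken from RMA. Signal over background is not known, so no dim probe was left out, and the 6 arrays in each group limit the precision. Nothing says how the rats were housed or processed together, and each p-value sets a group difference against the spread between rats within groups.

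Gene symbols come from the annotation of the array platform. The 18511 with exactly 1 symbol represent 18166 genes, and a gene's probe sets were averaged. Genes were fitted in R 4.3.3 with limma 3.58.1 (lmFit on all arrays, 1 mean per group, and eBayes, with 25 residual and 3.71 prior degrees of freedom), two-sided, adjusted over 18166 genes per comparison. The fit was also run on simulated data with independent normal noise for each gene. Such data lack the correlated genes and outlying rats seen here, so that run does not test the calls. Alternatives were array weights, a robust prior, 2 scalings, another choice of probe set, fits of the groups compared alone, and leaving out rats 95 and 139 or each rat in turn.

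The members and gene lists were chosen with earlier results of these data known. Genes were open to naming as the up to 8 called members with the largest rise and the largest fall in each comparison, the 4 with the lowest p where fewer than 4 were called, the 8 with the lowest p in the F test, a set followed in every comparison (Mrpl12, Mrps12, Mrpl58, Mrps18a, Mrps18b and Mrps18c, with Mrpl11, Mrps2 and Mrps36 not analysed here), and up to 4 called genes per list. Other genes named as examples were chosen after their values were seen: Mrpl30, Mrpl32, Mrpl36, Mrpl42, Mrpl49, Mrps11, Mrps15, Mrps21, Mrps21l and Mrpl41l1. So were the neighbouring genes, Gadd45gip1, Mettl17, Gabpa, Nrf1 and Yy1. Promoters and gene positions are RefSeq's, assembly GRCr8.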

Additional observations from a re-analysis of the deposited data

Results flagged for a closer look

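In groups of 6, a rat was set apart where its gap to the nearest other rat was, as a share of the group's range, above Dixon's 95% limit. Chance alone does this in about 1 of 20 groups, and over the 72 genes it happened in 24 of 360 groups (6.67%), 9 of them by PH30 rat 95 and 6 by PH70 rat 139. PH30 rat 95 stood apart in 6 genes of the text, at 0.37 in Mrpl12, -0.24 in Mrpl20, 0.35 in Mrpl46, 0.29 in Mrpl58, 0.52 in Mrps27 and 0.49 in Mrps30. In Mrpl20 it was the lowest PH30 rat and in the other 5 the highest. PH70 rat 139 stood apart in the mean of the 72 genes, at -0.01 where the other 5 PH70 rats lay between 0.12 and 0.16. PH90 rat 111 was apart in Mrps18b, at 0.75, below the other PH90 rats (1.07 to 1.23) and above all sham rats. Sham rat 45 was apart in Mrps10, at 0.34, where the other 5 sham rats lay between -0.53 and -0.30. Unoperated rat 152 was apart in Mrps27, at -0.22, where the other 5 lay between -0.01 and 0.11.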

How the results depend on the processing

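No sign change with a call occurred among the 133 gene-by-comparison results named. The split for PH30 against unoperated (2 higher and 3 lower) turned to 2 higher and 1 lower without unoperated rat 151, and its median (-0.01) to 0.01 without PH30 rat 65 or 140 or unoperated rat 150. Of the 98 named results that were called, 69 kept their call in all 7 alternatives and all fits without 1 rat, 19 lost it in at least 1 alternative and 25 in at least 1 fit without a rat. The counts of the 72 genes called for PH90 against sham, unoperated and PH30, and by the F test among resections, stayed within 1.5 times the reported value in every alternative. With array weights the counts moved to 14 for PH30 against sham (reported 9), 46 for PH70 against sham (29), 4 for sham against unoperated (0), 14 for PH30 against unoperated (5), 32 for PH70 against unoperated (20) and 28 for PH70 against PH30 (8). Without rats 95 and 139 they were 15, 45, 2 and 15 for the first 4 of these and 29 for PH70 against PH30. The same fit gave 26 higher and 3 lower for PH70 against unoperated, with 22.8% of all genes called. It gave 41 and 3 for PH90 against unoperated (35.5%) and 45 and 3 for PH90 against PH30 (34.7%). For PH90 against PH70 it gave 21 and 8 (25.8%), and its F test called 51 (37.4%). After quantile normalization the counts were 14 for PH30 against sham, 2 for sham against unoperated and 9 for PH90 against PH70 (28), where all genes called went to 2374 (reported 4454). In fits of the groups compared alone they were 5 for sham against unoperated, 3 for PH30 against unoperated, 0 for PH70 against PH30 and 18 for PH90 against PH70. The cause was not tested. Leaving out each rat in turn gave 1 to 10 for PH30 against sham, 29 to 41 for PH70 against sham, 46 to 49 for PH90 against sham, 0 to 1 for sham against unoperated, 2 to 14 for PH30 against unoperated, 15 to 25 for PH70 against unoperated, 36 to 42 for PH90 against unoperated, 0 to 23 for PH70 against PH30, 38 to 48 for PH90 against PH30, 23 to 28 for PH90 against PH70 and 39 to 48 for the F test. The single call for sham against unoperated came without sham rat 114 or 143 or unoperated rat 147 or 148. No paired analysis was possible because no rat number occurs in more than 1 group and the labels name no pairs. Levels and signal over background are lost by the centring, so a filter on dim probes could not be run.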
